A study of Mus musculus with 15 samples.

Results

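The interaction of Stag1 knockdown with Stag2 genotype was measured in mouse embryonic stem cells as a difference of differences. The change caused by siStag1 in Stag2-/- cells (Stag2-/- siStag1 against Stag2-/- siGLO) was compared with the change caused by siStag1 in wild-type cells (wild-type siStag1 against wild-type siGLO). These 4 conditions, with 3 libraries each, made up 12 of the 15 polyA RNA-seq libraries of the series. All cells were of the male v6.5 line, grown on gelatin, and were transfected with 50 nM of either siStag1, which targets Stag1, or siGLO, the transfection control, and harvested after 48 hours. The study took its Stag2-/- libraries from a single CRISPR clone, so the Stag2 deletion and other differences between that clone and the wild-type cells cannot be told apart. The study calls its RNA-seq replicates of the knockout lines biological replicates, and they came from 1 clone per genotype, so the p-values measure the spread between cultures of that clone and not between clones. The remaining 3 libraries, from Stag1-/- cells given siGLO, were in none of these comparisons. They entered through the gene filter, the scaling, the replicate block where used and the shared estimate of that spread. With all 15 libraries 14508 genes were tested, and with the 12 alone 14379.

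Cohesin is a ring of SMC1A, SMC3 and RAD21 that folds chromatin into loops and holds sister chromatids together. Each ring carries either STAG1 or STAG2, and both proteins occupy many of the same sites. The comparison asks whether Stag1 knockdown has another effect on gene expression once Stag2 is gone. Naive pluripotency describes the ground state of embryonic stem cells, held by a network of transcription factors that includes TFCP2L1, ESRRB, KLF4, TBX3 and NR5A2, whereas POU5F1 and SOX2 are shared by naive and later pluripotent states.

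Most of the called interactions were negative, meaning that siStag1 gave a lower fold change in Stag2-/- cells than in wild-type cells, by a margin that depended on the model. Of 14508 genes tested, 23 (0.159%) had a difference of differences that passed an adjusted p under 0.1 in edgeR's quasi-likelihood test with Benjamini-Hochberg adjustment. The difference was negative for 20 genes (0.138%) and positive for 3 genes (0.0207%). With the replicate number as a block, 138 genes (0.951%) passed, 106 negative (0.731%) and 32 positive (0.221%), and all 23 genes were again among them. A block for each genotype and replicate number, chosen after seeing the data because same-numbered libraries deviated together mainly within a genotype, gave 958 genes (6.6%), 545 negative (3.76%) and 413 positive (2.85%), the 23 included. Naive pluripotency factors supplied 5 of the 20 negative genes without the block and 12 of the 106 with it, and 13 of the 16 naive genes were called with the genotype-by-replicate block. Without the block, siStag1 changed 36 genes (0.248%) in wild-type cells and 924 genes (6.37%) in Stag2-/- cells. With the block these counts were 236 (1.63%) and 2049 (14.1%). Against wild-type siGLO, 4110 genes (28.3%) differed in Stag2-/- siGLO cells and 6364 genes (43.9%) in Stag2-/- siStag1 cells. The median interaction over all genes was 0.01 on the log2 scale.

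Counts on genes ran from 14982560 to 19005726 per library. Of 8 embryonic stem cell markers, none was at or under 3 counts in any of the 4 conditions, and their summed normalized count ran from 100700 to 112000 in the wild-type libraries, from 84150 to 102200 in Stag2-/- siGLO and from 63760 to 82870 in Stag2-/- siStag1. Feeder fibroblast markers summed to between 287.3 and 645.1 normalized counts over 7 genes, with Lum at or under 3 counts in every condition. The 6 primitive endoderm markers summed to between 3864 and 4354 in wild-type libraries and to between 728.1 and 1164 in Stag2-/- libraries, and their part in the interaction was not tested. The count of 23 rested on single libraries: it was 76 without replicate 1 of Stag2-/- siStag1, and 13 without replicate 2 of wild-type siGLO or any 1 of the wild-type siStag1 libraries. Without replicate number 2 of all 4 conditions no gene was called, and 401 genes had an unadjusted p under 0.05.

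siStag1 lowered Stag1 transcripts in both genotypes. Normalized counts (counts scaled to a common depth after TMM scaling) of Stag1 were 2283, 2133 and 2008 in the wild-type siGLO libraries and 516.4, 455.3 and 352.4 in wild-type siStag1. They were 1871, 2199 and 1932 in Stag2-/- siGLO and 665.9, 779.6 and 627.7 in Stag2-/- siStag1. The siStag1 libraries of both genotypes did not overlap with each other, and more Stag1 remained in Stag2-/- cells. The siStag1 effect was −2.28 ± 0.14 (log2, SE, n = 3) in wild-type cells and −1.53 ± 0.14 in Stag2-/- cells. Their difference of 0.75 ± 0.19 had an edgeR adjusted p of 0.25 without the block and 0.025 with it.

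Stag2 transcripts were counted at 2324, 2330 and 2324 in wild-type siGLO and at 662, 737.7 and 673.3 in Stag2-/- siGLO. A Stag2 message therefore remained at 29.7% of the wild-type level in the Stag2-/- clone, which carries a deletion across several exons and whose loss of STAG2 protein the study checked by western blot. With siStag1 the counts were 2766, 2732 and 2388 in wild-type cells and 848.9, 929 and 938.5 in Stag2-/- cells. The interaction on Stag2 was 0.21 ± 0.16 with an edgeR adjusted p of 0.96.

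**Figure D1:**
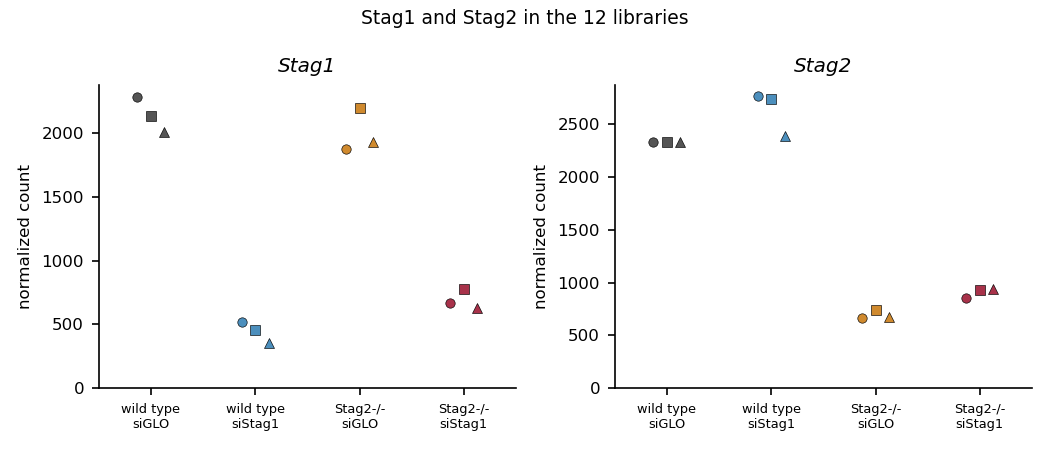
Normalized counts of Stag1 (left) and Stag2 (right) in each of the 12 libraries, by condition on the x axis; circles, squares and triangles are replicates 1, 2 and 3, and both y axes start at 0. Stag1 with siStag1 lies between 352.4 and 516.4 in wild-type cells and between 627.7 and 779.6 in Stag2-/- cells, while Stag2 lies between 662 and 938.5 in all Stag2-/- libraries.

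The cohesin genes, which encode the ring, its loader, its release and acetylation factors and CTCF, gave no interaction without the block. The 18 tested genes of this list had a median interaction of 0.08, and the values ran from −0.13 for Cdca5 (sororin) to 0.75 for Stag1. Stag1 was the member called with the replicate block, and 3 members, Rec8 among them, were called with the genotype-by-replicate block. Rec8, the meiotic kleisin, had an interaction of 0.64 ± 0.31 with an edgeR adjusted p of 0.87, and Rad21 had 0.20 ± 0.09 with an adjusted p of 0.87.

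Naive pluripotency factors were lowered more by siStag1 in Stag2-/- cells than in wild-type cells. All 16 genes of the list were tested. Tfcp2l1, Esrrb, Tbx3, Nr5a2 and Klf4 had a negative interaction without the block, and none had a positive one. With the block, Zfp42, Nr0b1, Prdm14, Klf5, Tcl1, Manba and Dppa3 joined them, and Klf2, Gbx2, Stat3 and Socs3 did not. Klf2 was called with the genotype-by-replicate block (edgeR adjusted p = 0.00016). The list's median interaction was −0.91, against 0.01 for all genes, and 15 of 16 members lay below 0, against 49.0% of all genes. siStag1 lowered 13 members in Stag2-/- cells, with a list median of −1.32, and 2 members in wild-type cells, with a list median of −0.37. With the replicate block it lowered 13 and 6 members.

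Tfcp2l1 and Esrrb, which had the smallest adjusted p of this list, and Zfp42, which held a motif, are shown by the 250 bases upstream of one annotated start each, since most members had an interaction of the same sign. The windows come from RefSeq on GRCm38.p6 and are printed 5′ to 3′ along the gene. Capitals mark the letters GGGTGTGG, a KLF-type box, on either strand.
Tfcp2l1 (chr1:118627695-118627944, plus strand): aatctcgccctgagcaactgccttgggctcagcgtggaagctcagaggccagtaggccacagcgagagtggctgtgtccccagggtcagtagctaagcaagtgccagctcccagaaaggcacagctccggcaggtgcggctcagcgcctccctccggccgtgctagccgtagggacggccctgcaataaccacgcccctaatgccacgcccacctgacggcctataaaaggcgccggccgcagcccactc
Esrrb (chr12:86360867-86361116, plus strand): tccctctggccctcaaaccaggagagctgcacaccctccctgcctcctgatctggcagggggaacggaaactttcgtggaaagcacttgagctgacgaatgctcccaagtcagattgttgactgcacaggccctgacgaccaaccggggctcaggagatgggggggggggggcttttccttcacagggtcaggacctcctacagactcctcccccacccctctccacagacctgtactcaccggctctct
Zfp42 (chr8:43307010-43307259, minus strand): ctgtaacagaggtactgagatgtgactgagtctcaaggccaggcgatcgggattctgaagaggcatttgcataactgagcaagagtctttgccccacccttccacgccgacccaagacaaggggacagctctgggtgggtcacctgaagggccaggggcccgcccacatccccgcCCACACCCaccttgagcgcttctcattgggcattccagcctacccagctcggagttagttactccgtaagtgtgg
Of 14 such windows of 12 list members, 1 held GGGTGTGG, against 3.2% of 32851 windows in the table. None held AAGGTCA, the half-site read by ESRRB and NR5A2, or a core of the CTCF motif, which 4.08% and 2.07% of all windows held on either strand. A match is a string of letters only, and Esrrb and Nr5a2 have a further start in the table.

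Tfcp2l1 encodes a transcription factor downstream of LIF and STAT3. Its gene lies at chr1:118627945-118685168 on mm10. Normalized counts were 7597, 7531 and 8046 in wild-type siGLO and 4834, 4593 and 4721 in wild-type siStag1. They were 2800, 4688 and 4220 in Stag2-/- siGLO and 675.7, 731.8 and 702.4 in Stag2-/- siStag1. The 3 doubly depleted libraries lay far below all the others, while the single perturbations overlapped. siStag1 changed Tfcp2l1 by −0.71 ± 0.13 in wild-type cells and by −2.47 ± 0.14 in Stag2-/- cells. The interaction was −1.76 ± 0.19 (edgeR adjusted p = 0.0007) and ran from −1.97 to −1.40 within the 3 replicate numbers. The mean with both perturbations was 9.11% of wild-type siGLO, where the product of the single effects gave 30.8%.

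Esrrb, an orphan nuclear receptor of the same network, was counted at 12390, 11010 and 11350 in wild-type siGLO and at 9555, 8838 and 9359 in wild-type siStag1. Counts in Stag2-/- cells were 6258, 6030 and 7310 with siGLO and 1328, 2139 and 2108 with siStag1. No 2 of the 4 conditions overlapped. The interaction was −1.49 ± 0.20 (edgeR adjusted p = 0.0040), and the doubly depleted mean was 16.0% of wild type against 45.0% under multiplication.

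Klf4, a Krüppel-like factor and reprogramming factor, was counted at 3840, 3851 and 3985 in wild-type siGLO and at 3126, 2902 and 3153 in wild-type siStag1. For Stag2-/- cells the counts were 2124, 2311 and 2786 with siGLO and 646.2, 843.9 and 1137 with siStag1. Levels stepped down in that order, with the widest step at the last condition. The interaction was −1.11 ± 0.22 (edgeR adjusted p = 0.068), and the call was lost with library size alone as the scaling (adjusted p = 0.14) and among the 12 libraries alone (adjusted p = 0.16).

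Tbx3 and Nr5a2 differed in what the single perturbations did. Tbx3, a T-box factor, was counted at 2175, 2006 and 2234 in wild-type siGLO, 1142, 1045 and 1316 in wild-type siStag1, 822.5, 867.8 and 953.5 in Stag2-/- siGLO and 187.9, 282.3 and 243.2 in Stag2-/- siStag1. siStag1 lowered Tbx3 in both genotypes, by −0.87 ± 0.13 and −1.89 ± 0.14. Its interaction of −1.02 ± 0.18 (edgeR adjusted p = 0.044) was on the log2 scale only: in normalized counts the loss with siStag1 was smaller in Stag2-/- cells by 327.3 counts. Nr5a2, a nuclear receptor, was counted at 999.3, 889.8 and 881.9 in wild-type siGLO and 694.4, 721.4 and 656.4 in wild-type siStag1. It was counted at 840.5, 898 and 755.5 in Stag2-/- siGLO and at 385.6, 279.2 and 334 in Stag2-/- siStag1. The Stag2-/- siGLO libraries overlapped wild-type siGLO for Nr5a2, and the interaction was −0.90 ± 0.16 (edgeR adjusted p = 0.044). In 15 fits that left out 1 library, or 1 replicate number of all 4 conditions, Nr5a2 lost its call in 8 and Tbx3 in 5. Tfcp2l1 and Esrrb lost theirs in 1 each.

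Other naive members were called with the block alone. Zfp42 (Rex1), a naive marker, was counted at 7939, 6257 and 5092 in wild-type siGLO, 5402, 4906 and 4297 in wild-type siStag1, 5520, 4473 and 4530 in Stag2-/- siGLO and 2007, 1916 and 1867 in Stag2-/- siStag1. The doubly depleted libraries alone stood clear of the rest. The Zfp42 interaction was −0.93 ± 0.20 with an edgeR adjusted p of 0.13 without the block and 0.0028 with it. Prdm14, which restrains FGF signalling and DNA methylation in naive cells, was counted at 469.3, 418 and 437.5 in wild-type siGLO, 226.8, 225.8 and 233.6 in wild-type siStag1, 141.5, 162.4 and 211.8 in Stag2-/- siGLO and 9.836, 38.41 and 34.31 in Stag2-/- siStag1. Its interaction was −1.70 ± 0.37, with an edgeR adjusted p of 0.13 without the block and 0.026 with it, and it turned positive in normalized counts (68.53). Klf5 had an interaction of −0.90 ± 0.26 and Nr0b1, an orphan nuclear receptor, of −1.08 ± 0.37. Their edgeR adjusted p was 0.39 and 0.57 without the block and 0.026 and 0.0085 with it.

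Factors shared by naive and later pluripotency were not called without a block or with the replicate block, and 2 of 11, Nanog and Pou5f1, were called with the genotype-by-replicate block (edgeR adjusted p = 0.0024 and 0.067). The list's median interaction was −0.18, which became 0.01 without replicate 1 of Stag2-/- siGLO. Pou5f1 was counted at 21490, 19660 and 18970 in wild-type siGLO, 19280, 19500 and 19200 in wild-type siStag1, 23910, 18020 and 17790 in Stag2-/- siGLO and 19450, 15740 and 13150 in Stag2-/- siStag1. The conditions overlapped, and the interaction was −0.25 ± 0.18 (edgeR adjusted p = 0.96). Sox2 had −0.18 ± 0.12 (edgeR adjusted p = 0.95). Nanog had −0.74 ± 0.48 (edgeR adjusted p = 0.95), with 586.2, 2338 and 2177 counts in Stag2-/- siStag1, so that its first replicate lay well below the others. Whether the naive list differed from the shared list beyond these counts was not tested.

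**Figure D2:**
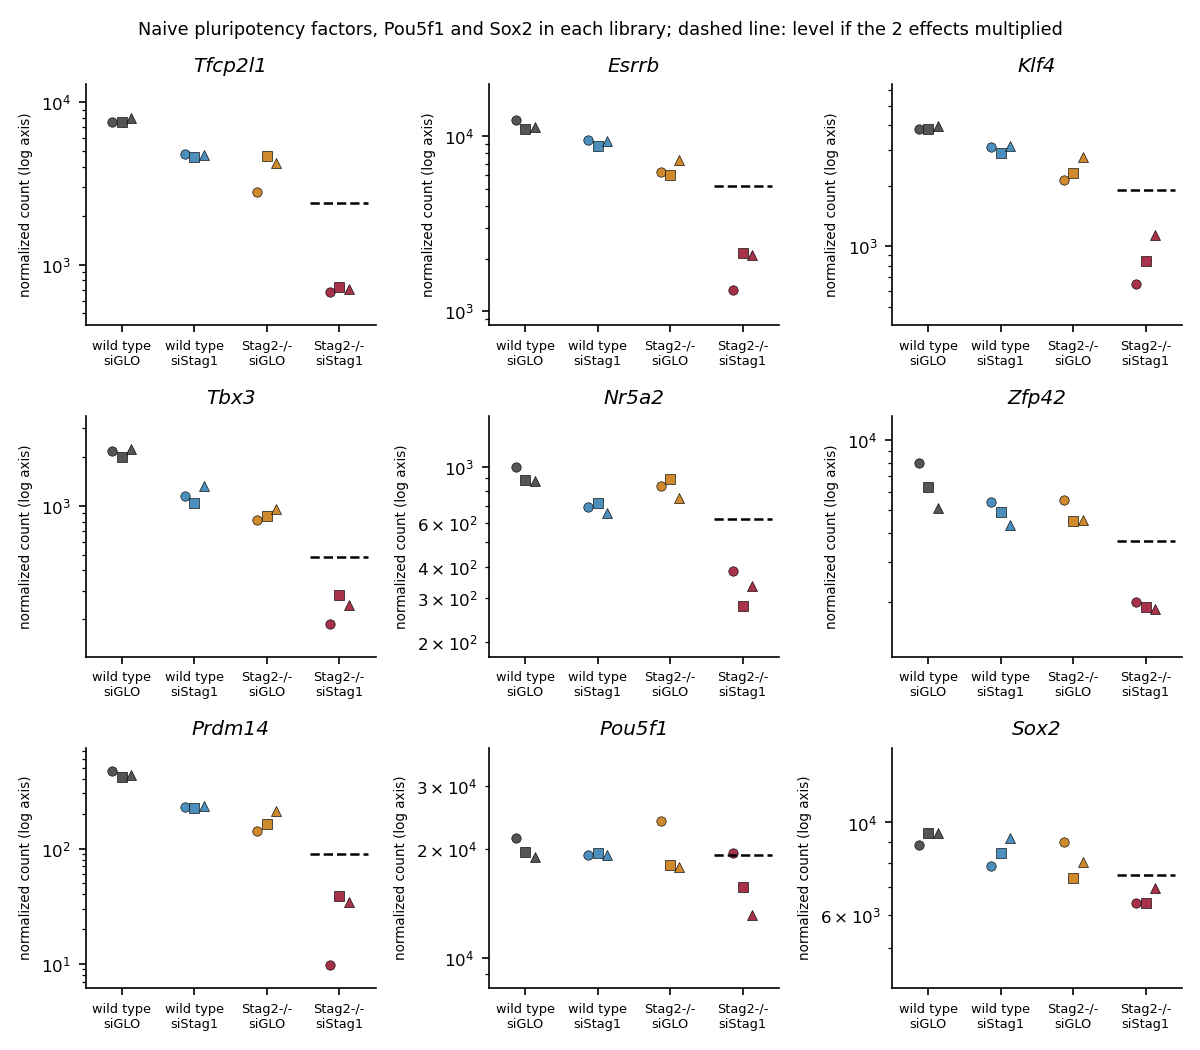
Normalized counts on log axes for 7 naive pluripotency factors, Pou5f1 and Sox2 in each library of the 4 conditions on the x axis; circles, squares and triangles are replicates 1, 2 and 3, and the dashed line is the mean expected in Stag2-/- siStag1 if both single effects multiplied. For Tfcp2l1 the 3 doubly depleted libraries lie between 675.7 and 731.8, far below their dashed line, and for Pou5f1 they lie between 13150 and 19450, around or below it.

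Inhbb, Ntn1, Fgfr2 and Fgf17 encode ligands or a receptor. Inhbb, the beta B subunit of activin and inhibin, was counted at 1612, 1554 and 1306 in wild-type siGLO and at 770, 884.8 and 770.3 in wild-type siStag1. The Stag2-/- cells had counts of 602.9, 319.4 and 373 with siGLO and 50.16, 64.36 and 34.31 with siStag1. Each of the 4 conditions had its own range, and the doubly depleted mean was 3.33% of wild type against 15.7% under multiplication. The interaction was −2.24 ± 0.33 (edgeR adjusted p = 0.0098). In normalized counts the difference of differences of Inhbb had the opposite sign (300.4). Of the 21 tested Nodal and BMP genes, Inhbb was called without the block, and Bmp4 and Msx2 joined it with the replicate block, also negative, while 5 were called with the genotype-by-replicate block. The list's median was 0.02.

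Ntn1, which encodes the guidance ligand netrin 1, was counted at 1442, 1527 and 1148 in wild-type siGLO and at 1037, 1272 and 911.3 in wild-type siStag1. Counts in Stag2-/- cells were 1426, 1995 and 1546 with siGLO and 356.1, 265.7 and 226.1 with siStag1. Neither single perturbation passed the test for Ntn1 without the block, while with the replicate block the Stag2-/- effect did (0.27, edgeR adjusted p = 0.081), and the doubly depleted libraries lay clear of all others at 20.6% of wild type. The interaction was −2.20 ± 0.24 (edgeR adjusted p = 0.0007). Of 34 tested axon guidance genes, whose median was 0.04, Ntn1 was called without a block and with the replicate block, and 7 were called with the genotype-by-replicate block.

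The FGF and ERK list held one gene in each direction. Fgfr2, a receptor for FGF ligands, was counted at 189.4, 179.6 and 188.3 in wild-type siGLO and at 219.8, 164.3 and 219.1 in wild-type siStag1. For Stag2-/- cells the counts were 232.3, 235.5 and 257.1 with siGLO and 587.2, 478.5 and 849.7 with siStag1. Its doubly depleted libraries all lay above every other library, at 344% of wild type against 141% under multiplication. The Fgfr2 interaction was 1.29 ± 0.25 (edgeR adjusted p = 0.057), and the call was lost among the 12 libraries alone (adjusted p = 0.20). The gene model overlaps an exon of Ctbp2 on the same strand by 210 bases. Fgf17, an FGF ligand, went the other way, with 694.2, 557 and 520.6 counts in wild-type siGLO, 552.5, 529.6 and 538.7 in wild-type siStag1, 537.4, 851.7 and 620.6 in Stag2-/- siGLO and 277.4, 276.1 and 222 in Stag2-/- siStag1. Its interaction was −1.24 ± 0.23 (edgeR adjusted p = 0.046, and 0.12 among the 12 libraries alone). With the block, Fgf4, the main FGF ligand of embryonic stem cells, had −0.75 ± 0.14 (edgeR adjusted p = 0.020), and Spry4, a feedback inhibitor, also passed with a negative value. The other 23 of the 27 tested FGF and ERK genes passed in neither of these fits, and 9 of the 27 were called with the genotype-by-replicate block.

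Tdh, Zfp57 and Igf2 were also called with negative interactions. Tdh, the threonine dehydrogenase on which mouse embryonic stem cells depend, was counted at 6095, 5885 and 5013 in wild-type siGLO and at 4706, 4888 and 4211 in wild-type siStag1. The Stag2-/- cells had counts of 5842, 5494 and 5244 with siGLO and 2165, 1462 and 1123 with siStag1. Stag2-/- siGLO libraries overlapped wild-type siGLO, and the doubly depleted mean was 28.0% of wild type. The interaction was −1.50 ± 0.23 (edgeR adjusted p = 0.015). Zfp57, a zinc finger protein that keeps imprints methylated, was counted at 6780, 6491 and 5881 in wild-type siGLO and at 5844, 5815 and 5823 in wild-type siStag1. Counts in Stag2-/- cells were 5958, 3594 and 4362 with siGLO and 1937, 1685 and 1668 with siStag1. The interaction on Zfp57 was −1.26 ± 0.20 (edgeR adjusted p = 0.015). Igf2, a paternally expressed growth factor, was called as well, at −1.10 ± 0.21 (edgeR adjusted p = 0.060, and 0.21 among the 12 libraries alone). Its exons share 3284 bases on the same strand with Gm49394, so its value is uncertain. Igf2 was the 1 gene called of 25 tested imprinted genes, whose median was −0.19, without a block and with the replicate block, and 4 were called with the genotype-by-replicate block.

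The study placed Tdh, Prdm14, Jam2, Laptm5 and Enpep inside insulated super-enhancer domains, a list chosen on these samples. Its ChIP-qPCR methods also name such a domain after Dmtn (Epb4.9), which is not in this list and is given below. Tdh was called without the block and Prdm14 joined it with the block. Laptm5, a lysosomal membrane protein, had an interaction of −1.04 ± 0.30 (edgeR adjusted p = 0.39), Jam2, a junction adhesion molecule, −0.50 ± 0.24 (adjusted p = 0.87) and Enpep, an aminopeptidase, 0.40 ± 0.73 (adjusted p = 1.00). None of 4 genes just outside such domains was called without a block or with the replicate block: App had 0.59 ± 0.42, Xkr6 0.47 ± 0.49, Sdc3 0.63 ± 0.22 and Slco5a1 0.24 ± 0.28. With the genotype-by-replicate block, 4 of the 5 inside (all but Enpep) and 2 of the 4 outside (App and Sdc3) were called.

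Further called genes were Kifc3, Stmn2 and Dnahc8. Kifc3, a kinesin, had −1.15 ± 0.18 (edgeR adjusted p = 0.018), and shares an exon stretch of 131 bases with an annotated antisense transcript. Stmn2, a regulator of microtubules expressed in neurons, was counted at 4405, 3898 and 3773 in wild-type siGLO, 3675, 3612 and 3551 in wild-type siStag1, 3733, 3899 and 4330 in Stag2-/- siGLO and 1704, 1790 and 1947 in Stag2-/- siStag1. Neither single perturbation passed for Stmn2, and both together left 45.0% of the wild-type level. Its interaction was −0.98 ± 0.12 (edgeR adjusted p = 0.0024). Of 21 tested neural genes it was the 1 called without a block and with the replicate block, and 5 were called with the genotype-by-replicate block. Dnahc8, an axonemal dynein heavy chain, had −1.42 ± 0.26 (edgeR adjusted p = 0.046, and 0.16 among the 12 libraries alone) and shares 207 exon bases with 1700097N02Rik on the opposite strand. The strand setting of the counting is not given in the sources used here, so reads of such overlapping genes cannot be told apart.

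Outside the rule for naming genes, and named because their calls are few, were Epb4.9 (Dmtn, an actin-bundling protein), Cdyl2 (a chromodomain protein), Cobl (an actin nucleator) and Nmnat2 (an enzyme of NAD synthesis). Their interactions were −0.95 ± 0.18, −0.93 ± 0.15, −0.86 ± 0.12 and −0.81 ± 0.16, with edgeR adjusted p of 0.051, 0.018, 0.0040 and 0.080. Among the 12 libraries alone the edgeR adjusted p was 0.15 for Epb4.9 and 0.20 for Nmnat2, and with library size alone as the scaling it was 0.104 and 0.143, so neither was called. Klf4, above, and Slc45a1 were also named after their values were seen. A further negative gene, 2210409E12Rik, is annotated as a processed pseudogene that shares 197 exon bases with Coil, so its value of −2.16 ± 0.38 (edgeR adjusted p = 0.035, and 0.12 among the 12 libraries alone) is uncertain.

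Besides Fgfr2, 2 genes had a positive interaction without the block, and for both the fitted siStag1 effects had opposite signs in the 2 genotypes. Tns1, which encodes the focal adhesion protein tensin 1, was counted at 349, 364.3 and 416.3 in wild-type siGLO and at 210.5, 206.5 and 207.5 in wild-type siStag1. For Stag2-/- cells the counts were 216.5, 144.1 and 226.5 with siGLO and 219.3, 238.7 and 241.2 with siStag1. All libraries of the other 3 conditions lay below wild-type siGLO for Tns1, and the siStag1 effect was −0.85 ± 0.15 in wild-type and 0.25 ± 0.15 in Stag2-/- cells (edgeR adjusted p = 0.035 and 0.44). The interaction was 1.11 ± 0.22 (edgeR adjusted p = 0.068, and 0.16 among the 12 libraries alone). Slc45a1, a sugar transporter at low level, was counted at 25.19, 17.25 and 19.32 in wild-type siGLO, 10.47, 5.507 and 9.653 in wild-type siStag1, 26.4, 30.11 and 33.72 in Stag2-/- siGLO and 68.85, 55.02 and 61.56 in Stag2-/- siStag1. Its interaction was 2.31 ± 0.41 (edgeR adjusted p = 0.040).

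**Figure D3:**
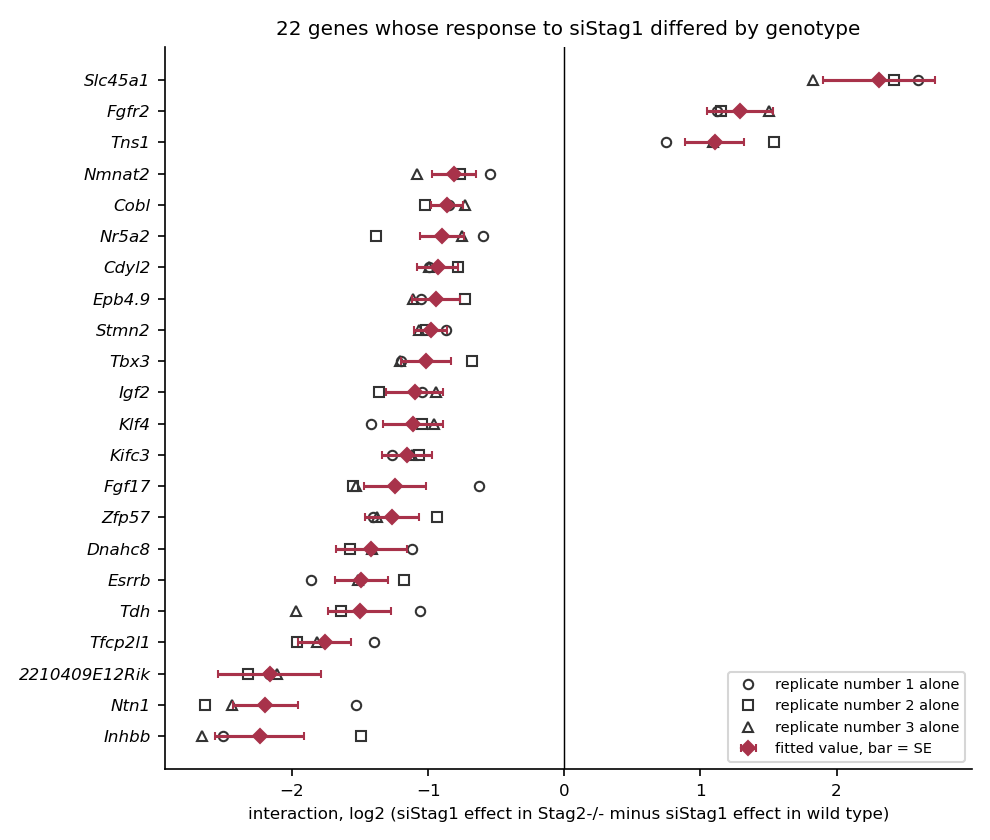
Interaction (log2, x axis) for 22 of the 23 genes called without the block on the y axis; diamonds with bars are the fitted value and its SE, and open circles, squares and triangles are the difference of differences within replicate numbers 1, 2 and 3 alone. Fitted values run from −2.24 for Inhbb to 2.31 for Slc45a1, and since the genes were chosen by that fit on the same libraries, the agreement of the replicate numbers in sign is a description only.

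The absolute interaction of the 23 genes ran from 0.81 to 2.31, with a median of 1.15, where the median over all genes was 0.16. siStag1 passed the test in Stag2-/- cells for 22 of the 23 and in wild-type cells for 4, among them Tfcp2l1, Tbx3 and Tns1. The signs of both siStag1 effects were the same for 19. The Stag2-/- clone with siGLO differed from wild-type siGLO for 13 of the 23, and for 28.3% of all genes.

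On the log2 scale, effects are additive when they multiply in counts. For 18 of the 23 genes the doubly depleted level was further from wild type than the sum of the single log2 effects, 17 of them below wild type and 1, Fgfr2, above it. Tns1 fell short of the sum, Dnahc8 and Slc45a1 went opposite to it, and for Ntn1 and Fgf17 the sum was under 0.1. With the block, 89 of 138 genes went further than the sum, 9 fell short and 27 went opposite to it, and for 13 the sum was under 0.1. Over all genes these shares were 35.4%, 37.0%, 8.25% and 19.4%. The sums and the interaction share all 12 libraries, so these classes are a description. On normalized counts, 19 of the 23 genes kept the sign of the interaction, and 4 did not, among them Inhbb, Tbx3 and 2210409E12Rik.

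**Figure D4:**
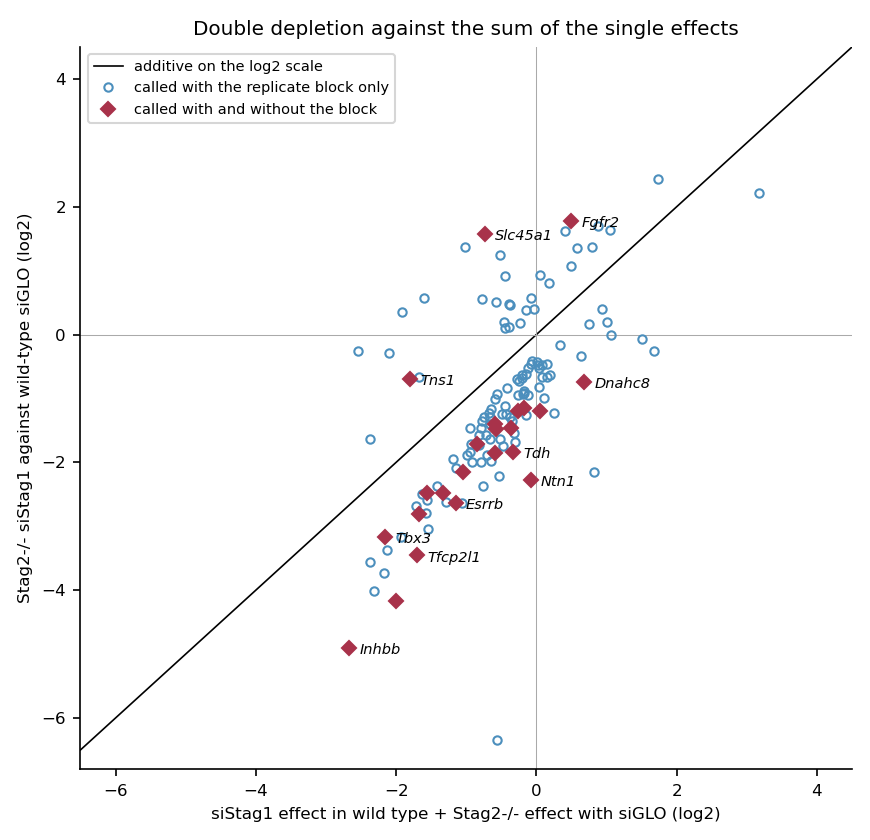
Stag2-/- siStag1 against wild-type siGLO (y axis, log2) plotted against the sum of the siStag1 effect in wild-type cells and the Stag2-/- effect with siGLO (x axis, log2); diamonds are the 23 genes called with and without the block, open circles the 115 called with the block only, and the line marks additivity. Inhbb and Tfcp2l1 lie below the line in the lower left, Fgfr2 above it in the upper right, and Tns1 between the line and 0.

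Genes that siStag1 changed in wild-type cells did not all interact. Stag1, Tbx3, Cacnb3, Atp11a and Calcoco2 had the smallest adjusted p among genes called there with and without the block. Calcoco2, an autophagy receptor, was counted at 346.2, 291.2 and 204.8 in wild-type siGLO, 137.2, 85.36 and 82.05 in wild-type siStag1, 190.1, 197.9 and 146.5 in Stag2-/- siGLO and 56.07, 59.17 and 58.53 in Stag2-/- siStag1. Its siStag1 effects of −1.47 ± 0.23 and −1.62 ± 0.24 differed by −0.14 ± 0.33 (edgeR adjusted p = 1.00). Cacnb3, a calcium channel subunit, rose by 0.64 ± 0.10 and 0.81 ± 0.10, and Atp11a, a phospholipid flippase, changed by −0.62 ± 0.10 and −0.69 ± 0.10. Their interactions were 0.17 ± 0.14 and −0.08 ± 0.14, with edgeR adjusted p of 0.97 and 1.00.

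The 12 tested genes of the 2-cell-like state, a rare state of stem cell cultures marked by Zscan4 genes, had mostly positive values. None passed without the block, Zscan4d and Zscan4e passed with it, and 4 of 12 passed with the genotype-by-replicate block. The list's median interaction was 1.40, and 11 of 12 values were above 0, against a median of 0.01 over all genes. Without the filter on low counts 16 members had a median of 1.08, with 5 values below 0. Zscan4d was counted at 217.4, 65.95 and 78.24 in wild-type siGLO, 76.76, 30.29 and 36.68 in wild-type siStag1, 64.41, 45.17 and 49.52 in Stag2-/- siGLO and 123.9, 77.85 and 101.9 in Stag2-/- siStag1. The first wild-type siGLO library was far above its replicates, and without it the list's median was 0.86. The Zscan4d interaction was 2.28 ± 0.69, with an edgeR adjusted p of 0.45 without the block and 0.047 with it. Zscan4 genes are near-identical copies, so their separate counts are uncertain.

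Primitive streak and mesoderm genes had a median interaction of −0.93 over 17 tested genes, of which none passed without the block and 4 passed with the genotype-by-replicate block. Cdx1, a caudal homeobox factor, passed with the replicate block (−2.89 ± 0.63, edgeR adjusted p = 0.052). Its counts were 57.85, 58.85 and 63.75 in wild-type siGLO, 56.99, 55.07 and 53.09 in wild-type siStag1, 74.97, 219.4 and 54.79 in Stag2-/- siGLO and 25.57, 6.228 and 8.073 in Stag2-/- siStag1. The second Stag2-/- siGLO library was far above the others for Cdx1, as was the summed streak list, at 2186 normalized counts against 656.8 and 853.4. Without that library the list's median was −0.47 and the Cdx1 interaction without the block was −2.14, against −2.98 with all libraries. Without replicate number 1 or 2 of all 4 conditions the Cdx1 value was −4.05 and −1.79.

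In the remaining lists few or no genes passed. The WNT, DNA replication, interferon and lysosome lists held 1 negative gene each with the replicate block and none without it, and 4 of 22, 3 of 30, 2 of 21 and 4 of 28 genes were called with the genotype-by-replicate block. With the block, Tead4 of the trophoblast list and Tdrd12 of the germline list were negative and Stra8, a meiotic entry gene, was positive, and 1 of 13 and 3 of 21 genes of these lists were called with the genotype-by-replicate block. No member of the formative and primed, primitive endoderm, p53, integrated stress response, mitosis, DNA repair, cholesterol, glycolysis, actin, matrix, Hox, protocadherin or histone lists passed without a block or with the replicate block, nor did the developmental markers Pax6 (0.66 ± 0.45), Nes (0.19 ± 0.28), Gata6 (−0.48 ± 0.48) and Sox17 (−0.10 ± 0.47). With the genotype-by-replicate block, which called 6.6% of all genes, the calls were 7 of 23 actin, SRF and YAP genes, 4 of 25 stress response, 3 of 15 formative and primed, 3 of 17 primitive endoderm, 3 of 19 matrix, 3 of 24 p53, 2 of 29 glycolysis, 1 of 27 DNA repair and 1 of 31 mitosis genes, and no cholesterol, Hox, protocadherin or histone gene. Cytosolic ribosomal protein genes, of which none passed without a block or with the replicate block and 9 with the genotype-by-replicate block, had 76 of 82 values below 0 with a median of −0.12, and respiratory chain genes, of which 0 and 5 passed in these fits, had 87 of 98 below 0 with a median of −0.13. Both medians stayed below 0 under every scaling tried. Without replicate 3 of wild-type siStag1 or of Stag2-/- siStag1 the ribosomal median was −0.076 and −0.077, and without replicate number 3 of all 4 conditions the ribosomal and respiratory medians were −0.049 and −0.061.

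**Figure D5:**
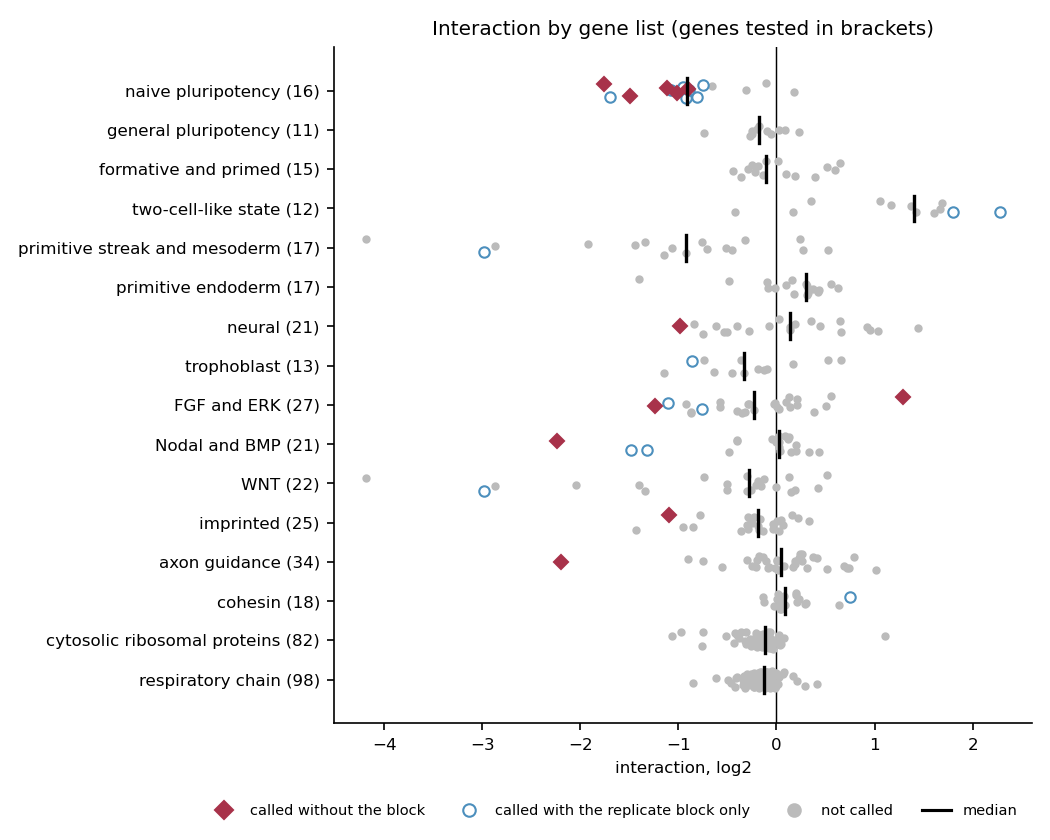
Interaction (log2, x axis) of each tested gene in 16 gene lists on the y axis, spread vertically at random; diamonds were called without the block, open circles with the replicate block only, grey points in neither fit, and black bars are list medians. The naive pluripotency list, with a median of −0.91, holds 5 diamonds and 7 open circles, and the general pluripotency list, with a median of −0.18, holds none.

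Among genes called with the block alone and named after their values were seen, Sgk1, a serum- and glucocorticoid-induced kinase, had −1.30 ± 0.13 (edgeR adjusted p = 0.00015). Mybl2, a cell cycle transcription factor, had −0.57 ± 0.10, Eed, a subunit of Polycomb repressive complex 2, −0.59 ± 0.13, and Tet2, a DNA demethylase, −0.53 ± 0.12, with edgeR adjusted p of 0.015, 0.047 and 0.049. Cntfr, the receptor subunit for ciliary neurotrophic factor, had 0.71 ± 0.14 and Prph, a neuronal intermediate filament, 0.83 ± 0.14, with edgeR adjusted p of 0.026 and 0.0079.

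Some called genes were neighbours. With the block, 18 of 138 called genes lay within 100 kb of another called gene, against 3.26% of all tested genes with a position on mm10. Epb4.9 (chr14:70601263-70636048) and Fgf17 (chr14:70636203-70642268) are 154 bases apart on the same strand, with interactions of −0.95 and −1.24. Sept1 and Mylpf lie 148 bases apart, with −0.97 and −1.02. Lrrc34 and Lrriq4 overlap on opposite strands, as do Dnahc8 and the predicted gene 1700097N02Rik, so that shared reads may enter both. Of 9 such pairs, 8 had 2 negative values and 1, Btbd7 with Itpk1, had opposite signs.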

How the data were processed

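The authors deposited gene-level counts per library for 23412 genes, aligned to mm10 with STAR; the counting annotation and strand setting are not given in the sources used here. Genes were kept by edgeR's filterByExpr (minimum count 10, minimum total 15), scaled by TMM and fitted with edgeR 4.0.16 (glmQLFit, glmQLFTest) on 15 libraries in 5 conditions, and calls were made at an adjusted p under 0.1. The 4 summary lines per file (ambiguous, multimapping, no feature, unmapped) were left out. For display, each count was brought to a common depth through its library's TMM factor and total. Errors are standard errors from the fit.

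Same-numbered siStag1 and siGLO libraries of 1 genotype deviated together (mean correlation 0.52 over 6 pairs, lowest 0.26). Same-numbered libraries of different genotypes did so less (mean 0.24 over 12 pairs, lowest −0.09), and the mean over 36 pairs with different numbers was −0.16. Deviations were taken from each condition's mean, which pulls pairs with different numbers below 0 where same-numbered pairs lie above it. The −0.16 is therefore not a separate baseline. Because same-numbered libraries deviated together, values are given with and without the replicate block. In simulated counts without replicate effects, the interaction test recovered 109 of 198 tested genes changed by 2-fold and called 6 of 14158 unchanged genes, over 14356 genes.

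Genes named were the cohesin genes, 16 genes the study discusses, up to 10 per direction with the largest interaction among genes called in both fits, with a mean of at least 50 normalized counts and 1 sign in all 3 replicate numbers, up to 4 called members of each list, and up to 5 genes called in wild-type cells. Members and lists were chosen with earlier results of these data known. DESeq2 1.42.0 was an alternative. Positions are from GENCODE M21. Of the called genes, 1 is not reported here.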

Additional observations from a re-analysis of the deposited data

Results flagged for a closer look

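Every interaction below was called because the siStag1 effects in the 2 genotypes differed by the interaction term of the edgeR model (log2, n = 3 libraries per condition). Negative values were Inhbb −2.24, Ntn1 −2.20, Tfcp2l1 −1.76, Tdh −1.50, Esrrb −1.49, Dnahc8 −1.42, Zfp57 −1.26, Fgf17 −1.24, Kifc3 −1.15, Klf4 −1.11, Igf2 −1.10, Tbx3 −1.02, Stmn2 −0.98, Epb4.9 −0.95, Cdyl2 −0.93, Nr5a2 −0.90, Cobl −0.86 and Nmnat2 −0.81. Positive values were Slc45a1 2.31, Fgfr2 1.29 and Tns1 1.11. Groups of 3 libraries were not searched for single outlying libraries.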

How the results depend on the processing

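The number of interaction calls depended on the modelling of replicates more than on scaling or filtering. Against 23 without a block, 138 genes passed with the replicate block, 14 among the 12 libraries alone, 152 among these with the replicate block and 102 with DESeq2. Chosen after seeing the data, DESeq2 with the replicate block gave 243 and a genotype-by-replicate block, which pairs siStag1 with siGLO within each genotype, gave 958, of which 545 were negative and 413 positive. Of the 23 genes, 23 were again called under each of these but the 12 libraries alone, which kept 14. Leaving out 1 library at a time gave 13 to 76 calls, with 13 without replicate 2 of wild-type siGLO or any wild-type siStag1 replicate and 15 without replicate 3 of wild-type siGLO. Leaving out replicate number 1, 2 or 3 of all 4 conditions gave 77, 0 and 7 calls. For the 0 calls by edgeR, 401 genes had an unadjusted p under 0.05. No interaction named as called reversed, but calls were lost. Without 1 library, 13 to 23 of the 23 genes were still called, and without replicate number 1, 2 or 3 of all conditions, 22, 0 and 7. Over these 15 fits the call was lost in 1 for Tfcp2l1, Esrrb, Tdh, Ntn1, Stmn2 and Cobl. It was lost in 6 for Slc45a1, in 8 for Nr5a2 and in 11 for Nmnat2. Genes not called whose sign turned follow. Without replicate 1 of Stag2-/- siGLO, Nes was −0.026, Gata6 0.19, Sox17 0.53, Atp11a 0.0073 and Gbx2 0.073. Without replicate 1 of all conditions, Sox17 was 0.062, Atp11a 0.093, Calcoco2 0.018 and Socs3 0.014, and without replicate 3 of all, Slco5a1 was −0.0077 and Enpep −0.0065. Without a single library at a time, Sox17 ran from −0.53 to 0.53, Calcoco2 from −0.33 to 0.12, Atp11a from −0.15 to 0.01, Nes from −0.026 to 0.42, Gata6 from −0.89 to 0.19, Gbx2 from −0.53 to 0.073 and Socs3 from −0.33 to 0.090.

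For siStag1 in wild-type cells, 36 calls became 236 with the replicate block, 266 among the 12 libraries with it, 131 with DESeq2, 363 with DESeq2 and the block, 1060 with the genotype-by-replicate block and 22 at an adjusted p under 0.05. Leaving out 1 library gave 1 to 57 calls: 15, 2 and 6 without wild-type siGLO replicates 1, 2 and 3, 3, 1 and 3 without those of wild-type siStag1, and 57 without replicate 1 of Stag2-/- siGLO. Leaving out replicate number 2 or 3 of all conditions gave 1 each. For siStag1 in Stag2-/- cells, 924 calls became 2049 with the replicate block, 2388 among the 12 libraries with it, 2024 with DESeq2 and the block, 4033 with the genotype-by-replicate block and 548 at an adjusted p under 0.05. Leaving out 1 library gave 416 to 1484 calls, with 1484, 535 and 416 without Stag2-/- siStag1 replicates 1, 2 and 3, and leaving out replicate number 2 or 3 of all conditions gave 157 and 243. The cause of these differences was not tested. Leaving out replicate numbers of all conditions was chosen after seeing the data. Genes near 3 counts per library cannot be compared at this depth.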
